A study of Mus musculus with 20 samples.

Results

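The heat shock proteins and their DnaJ co-chaperones were followed in the cecum of mice fed a Western-type diet with increasing resistant starch. Members were the protein-coding genes whose mouse symbol begins with Hspa, Hspb, Hspd, Hspe, Hsph, Hsp90, Dnaja, Dnajb or Dnajc, which gave 69 of the 19887 genes in the count table. Of these, 28 carried an Hsp symbol and 41 a Dnaj symbol, and the symbol rule also took in Hspbp1 and Hspbap1, which are binding partners of heat shock proteins and not chaperones themselves. The rule uses symbols and no measured value, though the family was picked with earlier results of these data known. After a filter on low counts, 66 of the 69 were tested. Of the others, Dnajb7 had 0 counts in every mouse and Hspb9, a testis-type small heat shock protein, had 0 to 6 counts per mouse.

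All 20 animals were C57BL/6 mice that received the Total Western Diet (TWD), a rodent diet modelled on human Western intake, for 6 weeks from an age of 3 weeks. For a further 3 weeks, 5 mice stayed on the TWD with 0% raw potato starch (RPS) and 5 mice each received the TWD with 2, 5 or 10% RPS by weight. RNA came from pieces of cecum, emptied of contents, with 1 library per mouse, and mice are numbered 1 to 5 within each diet only to name them. The study asked how the amount of RPS in a Western diet alters the cecum, and here the question is whether chaperone mRNA abundance moved with it.

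Chaperones bind unfolded or newly made proteins and help them fold. HSP70 proteins do so in cycles of ATP hydrolysis, which DnaJ proteins (also called HSP40 or J proteins) start by delivering the client, while HSP110 proteins exchange the nucleotide. HSP90 proteins act later on folded clients such as kinases and receptors, HSP60 with HSP10 forms the folding chamber of mitochondria, and small heat shock proteins hold unfolded proteins without ATP. Part of the family is made at all times. Another part, led by Hspa1a and Hspa1b, is switched on by heat and other protein-damaging stress through heat shock factor, and the endoplasmic reticulum (ER) has its own set that is switched on by the unfolded protein response.

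Total counts per library ranged from 14967798 to 42687283, and members took 0.546 to 0.969% of them. The epithelial genes on the marker list summed to 24220 to 42280 CPM (counts scaled to a library of 1000000) in every library. Of these, Car1 alone averaged 18630 to 25150 CPM by diet. The markers show intestinal epithelium and do not tell cecum from colon. Smooth muscle genes summed to 3124 to 11620 CPM, so the samples held muscle as well as mucosa. Mouse 4 on 5% RPS stood apart in the chaperones, with mouse 1 on 0% RPS next, and the values that moved most without either mouse are given both ways. Mouse 4 on 5% RPS also had the highest share of mitochondrial counts, 15.4%, against 9.0 to 13.8% in the other mice. In bulk tissue, fewer cells of a type and less RNA per cell cannot be told apart.

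The steady-state chaperones dominated the family. Per kilobase of transcript, Hsp90ab1, the constitutive cytosolic HSP90, was highest at 519 CPM per kb averaged over 20 mice. Hspa8, the constitutive HSP70, followed at 341, then Hsp90b1, the HSP90 of the ER, at 227 and Hspd1, the mitochondrial HSP60, at 217 CPM per kb. Hspa9, the mitochondrial HSP70, stood at 107 and Hspa5, the ER HSP70 also called BiP, at 93.8 CPM per kb. The most abundant J proteins were Dnajb11, a J protein of the ER, at 86.2 and Dnaja2, a cytosolic partner of HSP70, at 63.7 CPM per kb. Hspe1, the HSP10 lid of the mitochondrial chamber, reached 57.0 and Dnajc8, a nuclear J protein, 48.1 CPM per kb. Without correction for length, 5 members (Hsp90ab1, Hspa8, Hsp90b1, Hspd1 and Hspa5) made up 54.9% of the members' summed CPM, and 18 of 69 members averaged under 10 CPM.

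**Figure D1:**
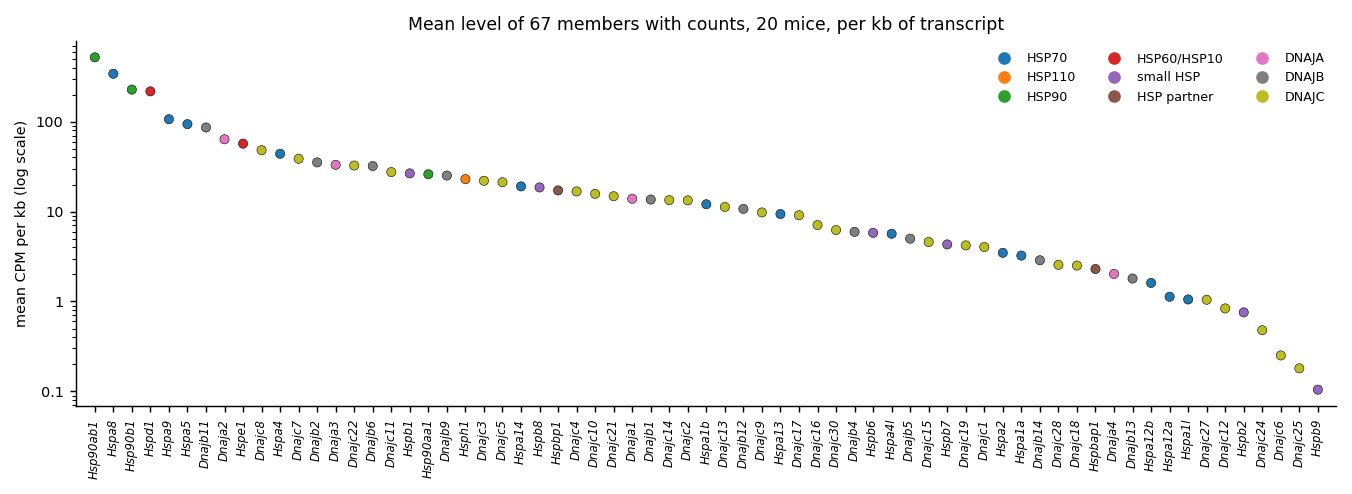
Mean level of the 67 members with any counts, in CPM per kb of transcript on a log scale, averaged over 20 mice and coloured by family. Hsp90ab1 at 519 and Hspa8 at 341 CPM per kb lead, and the heat-inducible Hspa1a and Hspa1b lie well below them.

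Some of these levels are uncertain because near-identical genes share sequence, and how reads that fit several genes were counted is not given in the sources used here. Of all 50-base stretches of the transcript (the read length was 50 bases), 73.2% of Hspa8, 62.3% of Hspa1b, 60.4% of Hspa1a, 58.0% of Hspb1, 54.3% of Hsp90aa1, 45.5% of Hspd1, 40.1% of Dnajb6 and 36.1% of Hspe1 also occur in transcripts of another gene. For Hspa1a and Hspa1b the other gene is mainly its twin, so their sum is the firmer value, while for the rest pseudogenes make up most of the overlap.

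Between mice on the same diet, members differed widely in how constant they were. The within-diet standard deviation was under 0.2 log2 units for 28 members and over 0.5 for 10 members, namely Hspa1b, Hspa1a, Hsph1, Hspb7, Hspe1, Hsp90aa1, Hspa8, Hspa4l, Hspb1 and Hspb6. Hspa1b (SD 1.12) and Hspa1a (SD 1.12) were more variable than 98.2% of all tested genes. At the other end, Dnajc1, a J protein of the ER membrane, had an SD of 0.070 (at 312 to 982 counts per mouse, where counting error alone is of a similar size) and Dnajc8 of 0.083 log2 units.

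No member passed the threshold of the study (Benjamini-Hochberg adjusted p at most 0.05 and at least 1.5-fold) with 10% RPS in edgeR's quasi-likelihood test, in which 1.04% of all 15348 tested genes did. The study applied its threshold with DESeq2 and reported more genes in the cecum with 10% RPS than this fit called. Most members nevertheless had a log2 fold change below 0, 47 of 66 against 49.1% of all tested genes, with a median over the members of -0.12 against 0.0041 over all tested genes. At an unadjusted p under 0.05, 12 members were lower, 18.2% of those tested against 9.75% of all tested genes, and 3 were higher, 4.55% against 9.74%. The lower members were Dnajc11, Dnaja2, Dnaja3, Dnajc15, Dnajb6, Dnajc21, Dnajb9, Dnajb14, Hspa9, Hspbp1, Dnajc30 and Dnajb11, and the higher members were Hspb7, Hspb1 and Dnajc18. The smallest adjusted p was 0.0586, for Dnajc11. The DESeq2 Wald test, run as an alternative, also called 0 members, but there 7 members had an adjusted p at most 0.05 and missed only the fold (Dnaja2, Dnaja3, Dnajb6, Dnajb9, Dnajc11, Dnajc15 and Dnajc21), all lower, where 6.01% of all genes with an adjusted p did, and the smallest was 0.0109 for Dnaja2 (log2 fold change -0.26 ± 0.069). Without mouse 4 on 5% RPS, 17 members were lower (10% of all genes in that fit) and 4 higher (11%), with 46 of 66 below 0 (47.7%). Without mouse 1 on 0% RPS, 11 were lower (9.42%) and 2 higher (8.23%), with 42 of 66 below 0 (48.5%). These counts describe the family, and no test was made of whether the family as a whole differs from other genes. Markers of other cell types went either way in the same comparison. All 11 smooth muscle markers were above 0 (median 0.69, 8 with an unadjusted p under 0.05). All 10 B cell markers were as well (median 2.07, 0 with an unadjusted p under 0.05), and their summed level was 7.32 to 279.6 CPM with 0% RPS and 19.2 to 403 CPM with 10% RPS, which overlap. Of the T cell markers 8 of 10 (median 0.57) and of the plasma cell markers 5 of 7 (median 0.44) were above 0. The opposite sign was seen in 10 of 10 enteric neuron markers (median -0.33, 0 with an unadjusted p under 0.05), 8 of 10 endothelial markers (median -0.24, 4 lower at an unadjusted p under 0.05) and 7 of 10 epithelial markers (median -0.13, 2 lower at that p). Among the epithelial markers Slc26a3, a chloride-bicarbonate exchanger, passed the threshold as higher (log2 fold change 0.61 ± 0.16, adjusted p = 0.0487 in edgeR). The part of cell makeup in the values of the chaperones was not tested.

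**Figure D2:**
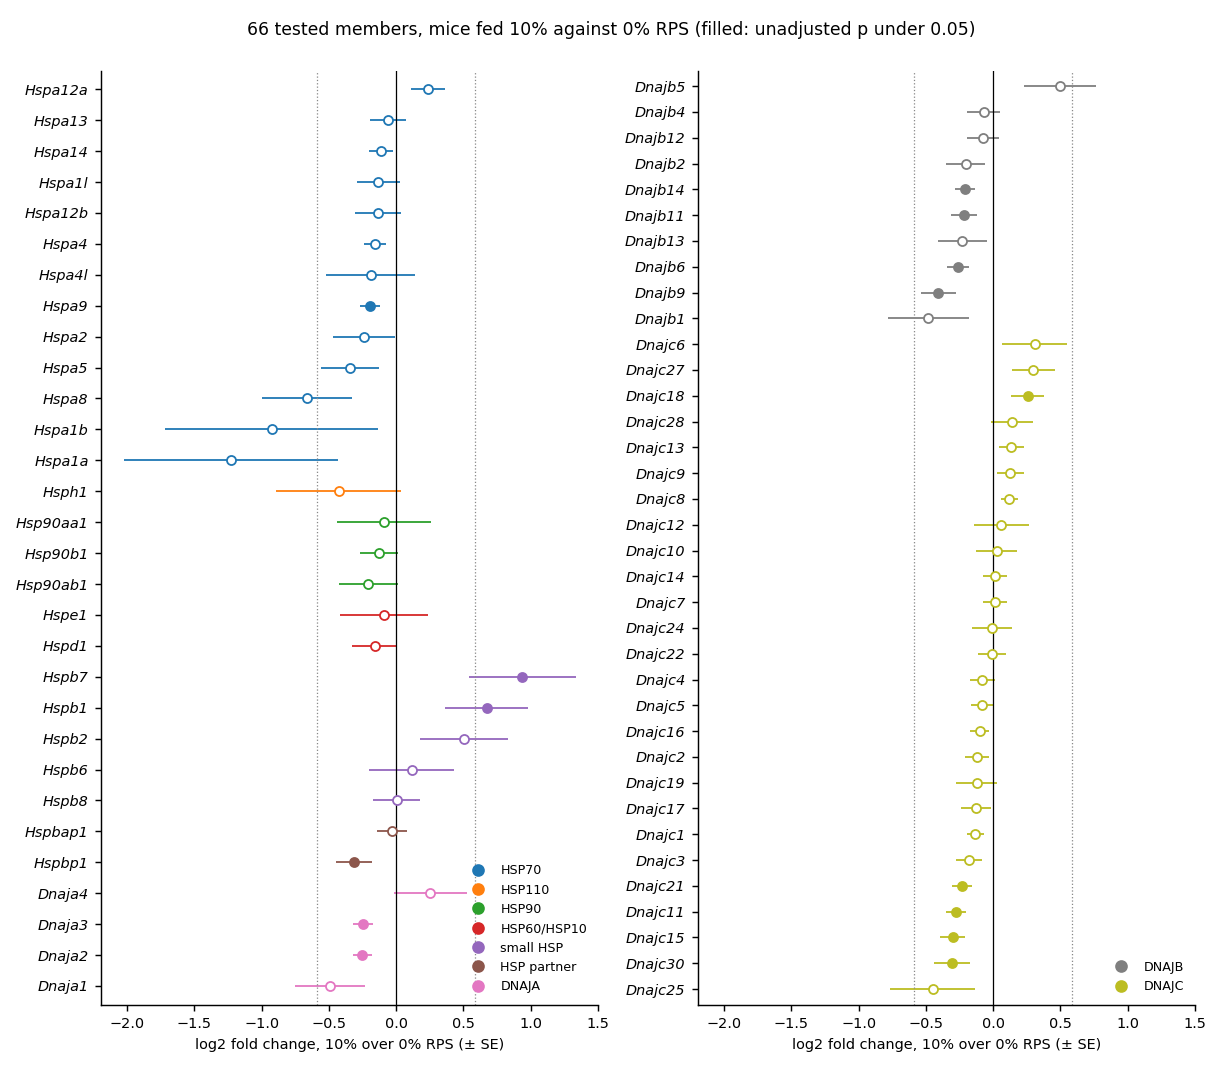
Log2 fold change (10% over 0% RPS, 5 mice each) with its standard error for the 66 tested members, grouped by family. Filled points have an unadjusted p under 0.05, dotted lines mark 1.5-fold, and most points of HSP70, HSP90 and the J proteins sit left of 0 while the 5 small heat shock proteins sit right of it.

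The other comparisons gave no call either. With 5% RPS, 0 members passed where 0.195% of all tested genes did, and at an unadjusted p under 0.05, 7 members were higher (background 6.74%) and 7 lower (background 6.54%). Without mouse 4 on 5% RPS these were 2 higher (background 7.0%) and 5 lower (background 8.03%), and 47 of 66 members were then below 0, against 37 with it (background 50.5% in either fit). Without mouse 1 on 0% RPS, 32 of 66 were below 0 (49.9% of all genes in that fit), with 6 members higher (6.23%) and 5 lower (6.38%) at an unadjusted p under 0.05. With 2% RPS, 0 members and 0% of all tested genes passed, and at an unadjusted p under 0.05, 0 members were higher (background 2.58%) and 4 lower (background 3.19%), namely Dnaja2, Dnaja3, Dnajb6 and Dnajc15. Along the 4 diets as a linear trend, 0 members reached an adjusted p of 0.05 where 1.11% of all tested genes did, and 11 were lower (background 9.47%) and 3 higher (background 9.37%) at an unadjusted p under 0.05. In the test for a difference among any of the 4 diets, 0 members passed where 0.0912% of all tested genes did, and 13 members had an unadjusted p under 0.05 (background 11.1%). The 3 diets share the same control mice, so their values are not independent of each other.

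The heat-inducible genes were the most uneven of the family, and the unevenness lay between mice more than between diets. In mouse 4 on 5% RPS, Hspa1a and Hspa1b together reached 425 CPM, against 10.0 to 77.2 CPM in the other 19 mice. Hspa1a and Hspa1b encode the inducible HSP70, whose mRNA is low in unstressed tissue and is a usual readout of the heat shock response. They lie next to each other on chromosome 17, at chr17:35188166-35191132 and chr17:35175412-35178214 in GRCm39.

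With 0% RPS, Hspa1a was 12.5, 6.33, 8.37, 3.36 and 5.85 CPM in mice 1 to 5, and with 2% RPS it was 5.35, 4.04, 1.83, 4.60 and 4.63 CPM. With 5% RPS it was 5.73, 5.64, 3.87, 101.1 and 3.58 CPM, and with 10% RPS it was 2.09, 2.63, 3.29, 3.11 and 4.43 CPM. The fourth mouse on 5% RPS was thus far above every other mouse, and the 10% RPS mice overlapped the 0% RPS mice in their highest value only. The log2 fold change with 10% RPS was -1.23 ± 0.79 (SE), with an adjusted p of 0.410 in edgeR's quasi-likelihood test over all 20 mice. When mouse 4 on 5% RPS was left out, which removes no mouse from either diet compared, it was -1.22 ± 0.31 with an adjusted p of 0.0417, and Hspa1a then passed the threshold as downregulated with 10% RPS. Without mouse 1 on 0% RPS it was -0.94 ± 0.84 (adjusted p = 0.584). With 5% RPS, the log2 fold change of 1.73 ± 0.78 (adjusted p = 0.340) became -0.62 ± 0.32 (adjusted p = 0.374) without that mouse.

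Hspa1b followed the same mice. With 0% RPS it was 64.7, 18, 23.8, 12.1 and 15.6 CPM, and with 2% RPS 23.6, 15.3, 8.18, 10.1 and 17.9 CPM. With 5% RPS it was 19.5, 14.7, 23.6, 324 and 14.0 CPM, and with 10% RPS 8.71, 13.3, 19.5, 13.5 and 15.6 CPM. Both mice that stood apart in Hspa1a did so here, and the remaining mice of the 4 diets overlapped throughout. Its log2 fold change with 10% RPS was -0.92 ± 0.79 (adjusted p = 0.555 in edgeR) and only -0.29 ± 0.80 without mouse 1 on 0% RPS (adjusted p = 0.886). With 5% RPS it was 1.57 ± 0.79 with 5% RPS (adjusted p = 0.412), which became -0.58 ± 0.43 (adjusted p = 0.554) without mouse 4.

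**Figure D3:**
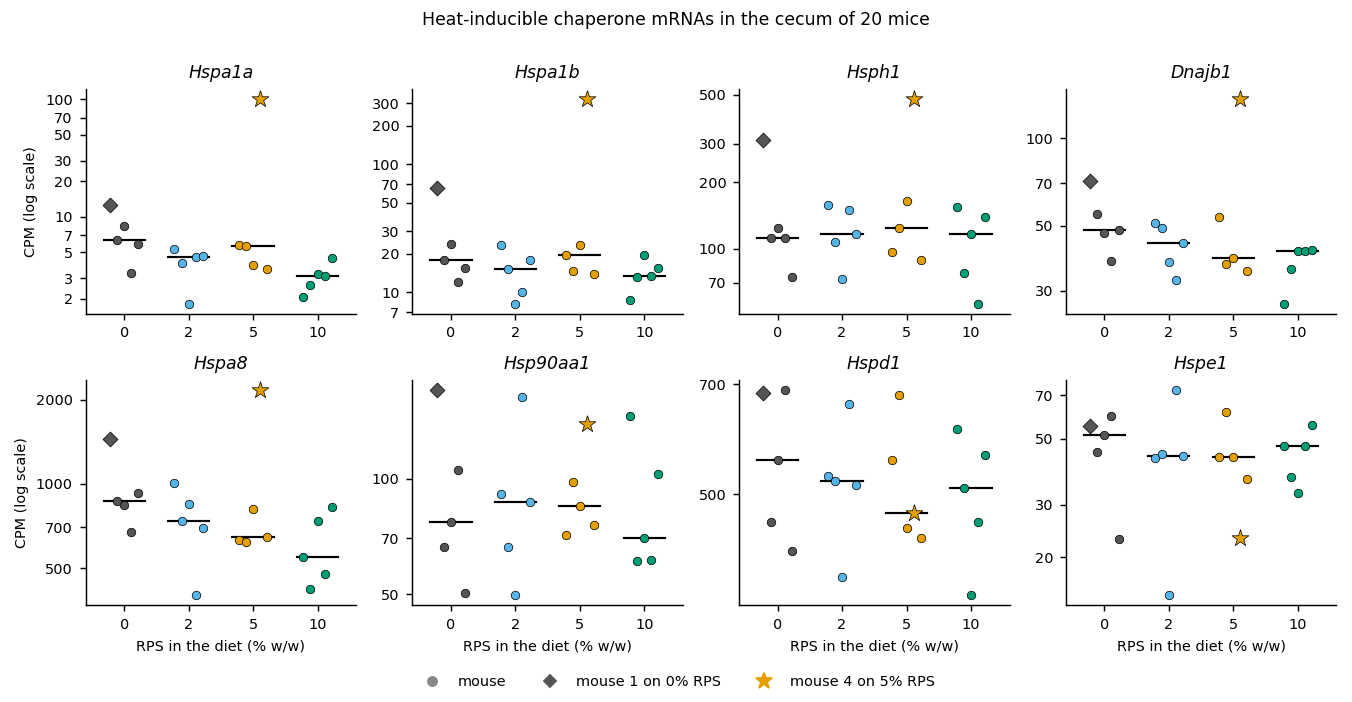
Level of 8 heat shock genes in each mouse, in CPM on a log scale, by the share of RPS in the diet. Bars mark the median of 5 mice, the star marks mouse 4 on 5% RPS and the diamond mouse 1 on 0% RPS. The star is highest of 20 for Hspa1a, Hspa1b, Hsph1, Dnajb1 and Hspa8, but not for Hsp90aa1, Hspd1 or Hspe1.

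Of 13 genes listed as the core of the heat shock response, mouse 4 on 5% RPS was highest of all 20 mice in 8 (Hspa1a, Hspa1b, Hspa8, Hsph1, Hsp90ab1, Dnaja1, Dnajb1 and Dnajb4). Mouse 1 on 0% RPS was second in 8 and highest in Hsp90aa1 and Hspa4l. Hsph1, the HSP110 that recharges HSP70, was 479 CPM in mouse 4 on 5% RPS and 312 CPM in mouse 1 on 0% RPS, against 56.4 to 165 CPM in the other 18 mice. Dnajb1, the J protein that serves inducible HSP70, was 136 and 71.1 CPM in those mice, against 27.1 to 55.2 CPM. Hspa8 was 2155 and 1445 CPM, against 401 to 1010 CPM. Dnaja1, a cytosolic J protein, was 151 and 133 CPM, against 39.1 to 93.8 CPM. The 2 mice at the top were thus on different diets, and the other 4 mice of each of those diets were not raised with them.

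Across the 20 mice, after removal of diet means from log2 CPM, Hspa1b and Dnajb1 varied together with Pearson's r = 0.935 and Spearman's rho = 0.865 (permutation tests, adjusted p = 2.67e-05 and 8e-05). Without the 2 mice farthest from the median of Hspa1b, which were those named above, r was 0.813. Hspa1b and Hsph1 gave r = 0.786 and rho = 0.633 (permutation tests, adjusted p = 0.00014 and 0.007), and r fell to 0.457 without those mice, so much of that relation rests on them. Hspa1b and Fos, an immediate early gene induced by many stimuli, gave r = -0.019 and rho = 0.062 (permutation tests, adjusted p = 0.941 and 0.910). These are 3 of 8 pairs examined, and adjustment was over the 8.

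The other heat-inducible members did not follow the 2 mice. Hsp90aa1, the inducible cytosolic HSP90, was 170 CPM in mouse 1 on 0% RPS, 163 in mouse 4 on 2% RPS, 145 in mouse 1 on 10% RPS and 139 in mouse 4 on 5% RPS, against 49.7 to 105 CPM in the rest. In mouse 4 on 2% RPS and mouse 1 on 10% RPS, inducible HSP70 was not high, with Hspa1a at 4.60 and 2.09 CPM. Its log2 fold change with 10% RPS was -0.090 ± 0.35 (adjusted p = 0.924 in edgeR) and became 0.24 without mouse 1 on 0% RPS. Hspd1 was 473 CPM and Hspe1 23.1 CPM in mouse 4 on 5% RPS, within or below the range of the other mice on that diet. Over the 13 core genes, the summed level was 3005 to 5239 CPM with 0% RPS, 2962 to 3601 with 2%, 2495 to 6376 with 5% and 2306 to 3532 with 10% RPS, with medians of 3166, 3002, 3116 and 2643 CPM. With 10% RPS, 12 of the 13 had a log2 fold change below 0 (median -0.21 against 0.0041 over all tested genes), and Hspb1 was the exception. Without mouse 1 on 0% RPS, 9 of the 13 were below 0 (median -0.080).

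Promoters of the family were searched for the binding sequence of heat shock factor. In the RefSeq windows of 250 bases before to 50 bases after each start (GRCm38.p6), 55 member genes had an entry. Members without one included Dnajc11, Dnajc12, Dnajc18, Dnajc2, Dnajc22, Dnajc30, Dnajc5, Hsp90aa1, Hsp90ab1, Hspa13, Hspa8, Hspa9 and Hspb2. The heat shock element was spelled GAANNTTCNNGAA and searched on both strands, with overlapping matches counted. It occurred in 4 of the 55 member genes (Hspd1, Hspe1, Dnajb6 and Hsph1), or 7.27%, and in 0.662% of all 27025 genes with a window. Counted by window, since a gene can have several, it was in 6 of 72 member windows (8.33%) and in 0.603% of all 32851. Hspd1 and Hspe1 are transcribed away from each other, and their windows share the same stretch, in which 2 overlapping matches lie 72 to 89 bases before the start of Hspe1 and 127 to 144 before that of Hspd1. In Hsph1 the match lies 15 bases past an annotated start. The stretches of the Hspd1 and Hspe1 pair and of Dnajb6 are shown because they carry the element before the start, in capitals, with 20 bases on either side, 5′ to 3′ on the plus strand. They lie at chr1:55088039-55088096 and chr5:29735832-29735884 in GRCm38.p6.
Hspe1: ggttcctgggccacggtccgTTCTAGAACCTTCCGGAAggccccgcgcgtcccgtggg
Dnajb6: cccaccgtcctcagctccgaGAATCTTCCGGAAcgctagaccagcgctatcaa

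Among those 4 genes only Hsph1 was high in mouse 4 on 5% RPS. Hspe1 was among the lowest of 20 there, and Dnajb6, a cytosolic J protein that keeps aggregation-prone proteins apart, was the lowest of 20 at 76.2 CPM. A match describes letters in the window and not binding, and the windows of Hspa1a, Hspa1b and Dnajb1 did not hold these letters.

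The mitochondrial chaperones had small fold changes. Of the 10 mitochondrial members, 9 had a log2 fold change below 0 with 10% RPS (median -0.18, against 49.1% of all tested genes below 0) and 5 were lower at an unadjusted p under 0.05 (background 9.75%), while none passed the threshold. Those 5 were Dnajc11, a J protein of the mitochondrial inner membrane organizing machinery, Dnaja3 (also called Tid1), the J protein that works with Hspa9 in the matrix, Dnajc15 of the import motor, Dnajc30, and Hspa9 itself. All 10 were measured in each mouse, and their summed level was 1122 to 1460 CPM with 0% RPS (median 1243) and 910 to 1234 CPM with 10% RPS (median 1116), which overlap.

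Dnajc11 gave the smallest p of the family. It was 91.9, 88.9, 91.6, 99.7 and 108 CPM with 0% RPS and 78.8, 80.2, 71.0, 85.2 and 81.3 CPM with 10% RPS. All 10% RPS mice were below all 0% RPS mice, and the 2% RPS mice (86.0 to 91.5 CPM) overlapped the 0% but not the 10% RPS mice, and the 5% RPS mice (68.3 to 88.9 CPM) overlapped the 10% RPS mice and reached the lowest 0% RPS mouse, at 88.9 CPM, without passing it. The log2 fold change was -0.28 ± 0.075, a ratio of 0.826, with an adjusted p of 0.0586 for 10% RPS and 0.0594 for the trend in edgeR. The gene lies at chr4:152018143-152066594 in GRCm39.

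Dnaja3 was 93.8, 98.2, 90.6, 99.8 and 86.8 CPM with 0% RPS and 79.1, 77.3, 71.3, 83.5 and 83.9 CPM with 10% RPS. Its groups did not overlap either, and the log2 fold change was -0.25 ± 0.074 (adjusted p = 0.0782 in edgeR). With 2% RPS it was already -0.20 (unadjusted p = 0.0129, adjusted p = 0.815). Hspa9 was 353 to 425 CPM with 0% RPS and 299 to 370 CPM with 10% RPS, which overlap, with a log2 fold change of -0.20 ± 0.077 (adjusted p = 0.173). Dnajc15 was 30.4 to 39.0 and 22.9 to 30.8 CPM, overlapping in its extremes, with -0.30 ± 0.093 (adjusted p = 0.0867). Hspd1 and Hspe1 had log2 fold changes of -0.16 ± 0.17 and -0.090 ± 0.33 (adjusted p = 0.641 and 0.915). Without mouse 1 on 0% RPS, Hspd1 had -0.080. Hspe1 had a within-diet SD of 0.58 log2 units, against 0.29 for Hspd1.

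Groups that did not overlap between 10% and 0% RPS were found in 4 members, all lower, or 6.06% of those tested against 3.2% of all tested genes, and in 0 members higher against 1.68%. The others besides Dnajc11 and Dnaja3 were Dnajb6 and Dnajb14. Dnajb6 was 108, 98.4, 118, 108 and 104 CPM with 0% RPS and 84.7, 89.6, 85.8, 96.6 and 90.2 CPM with 10% RPS, a log2 fold change of -0.26 ± 0.083 (adjusted p = 0.0934 in edgeR). Dnajb14, a J protein of the ER membrane, was 29.3, 28.3, 30.3, 31.7 and 30.9 CPM with 0% RPS and 26.7, 23.9, 25.1, 27.7 and 26.6 CPM with 10% RPS, a log2 fold change of -0.21 ± 0.076 (adjusted p = 0.138). For each of the 4 the two-sided exact permutation test gave p = 0.00794, the smallest that 5 against 5 mice allow, which restates that the groups do not overlap. None of the 4 reached 1.5-fold.

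**Figure D4:**
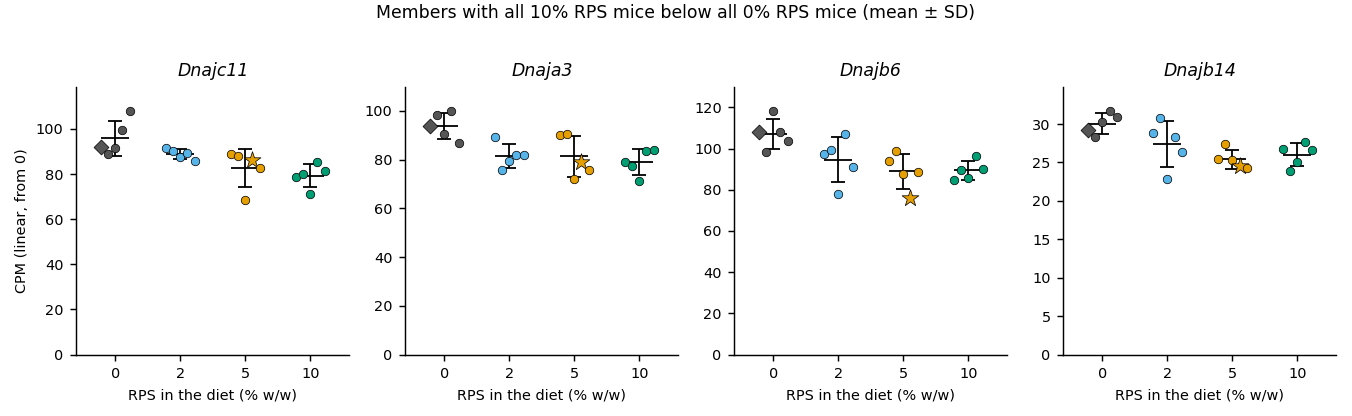
Level of Dnajc11, Dnaja3, Dnajb6 and Dnajb14 in each mouse, in CPM on a linear axis from 0, by the share of RPS in the diet, with mean and SD of 5 mice, and with mouse 4 on 5% RPS as a star and mouse 1 on 0% RPS as a diamond. All points at 10% RPS are below all points at 0% RPS, with ratios of mean levels of 0.826 to 0.864.

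In the cytosol, Dnaja2 was 220, 207, 214, 216 and 187 CPM with 0% RPS and 163, 178, 167, 194 and 175 CPM with 10% RPS. Only mouse 4 on 10% RPS reached into the range of the 0% RPS mice. The log2 fold change was -0.25 ± 0.073 (adjusted p = 0.0746 in edgeR) with 10%, -0.16 with 5% (adjusted p = 0.328) and -0.15 with 2% RPS (adjusted p = 0.849). Dnajc21, a J protein of ribosome assembly, was 31.6 to 36.4 CPM with 0% RPS and 26.1 to 33.5 CPM with 10% RPS (log2 fold change -0.23 ± 0.073, adjusted p = 0.0956). Hspbp1, a nucleotide exchange factor of HSP70, was 30.7 to 40.7 and 23.3 to 36.4 CPM (-0.31 ± 0.13, adjusted p = 0.211). Hspa8 was 1445, 866, 843, 674 and 931 CPM with 0% RPS and 549, 421, 736, 476 and 827 CPM with 10% RPS. The ranges overlap, and its log2 fold change of -0.66 ± 0.34, larger than those above, had an adjusted p of 0.286. Mice on the same diet differed by an SD of 0.54 log2 units for Hspa8 and 0.10 for Dnaja2, and without mouse 1 on 0% RPS the fold change was -0.46 ± 0.34 (adjusted p = 0.495). Hsp90ab1 had a log2 fold change of -0.21 ± 0.22 (adjusted p = 0.642), and of -0.039 without that mouse. Dnajc18 was the only J protein higher at an unadjusted p under 0.05, at 10.1 to 15 CPM with 0% and 12.2 to 17.7 CPM with 10% RPS (0.26 ± 0.12, adjusted p = 0.254).

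The ER chaperones had values below 0 as well, by small amounts. With 10% RPS, 9 of 10 had a log2 fold change below 0 (median -0.16, background 49.1%), 3 of them at an unadjusted p under 0.05 (Dnajb9, Dnajb11 and Dnajb14, background 9.75%), and 0 passed the threshold. Without mouse 1 on 0% RPS, 9 of 10 were below 0 (median -0.10, background 48.5%). With 5% RPS, 10 of 10 were below 0 (median -0.14, background 50.5%), and 2 were lower at an unadjusted p under 0.05 (background 6.54%). Without mouse 1 on 0% RPS, 8 of 10 were below 0 with 5% RPS (median -0.084, background 49.9%). Dnajb9 (also called ERdj4), which delivers misfolded proteins to BiP, was 80.6, 68.0, 82.1, 59.8 and 61.6 CPM with 0% RPS and 44.9, 51.4, 48.7, 64.1 and 56.6 CPM with 10% RPS. Mouse 4 on 10% RPS was the only one above the lowest 0% RPS mouse, and the log2 fold change was -0.41 ± 0.13 (adjusted p = 0.0964 in edgeR). Dnajb11 was 158 to 199 and 140 to 190 CPM (-0.21 ± 0.097, adjusted p = 0.234).

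Hspa5 was 837, 406, 482, 539 and 349 CPM with 0% RPS and 467, 292, 357, 361 and 578 CPM with 10% RPS. Mouse 1 on 0% RPS was highest of all 20, the remaining mice overlapped, and the log2 fold change was -0.35 ± 0.22 (adjusted p = 0.385). Without that mouse it was -0.11 ± 0.19 (adjusted p = 0.804). The same mouse was highest of 20 for Hsp90b1 at 855 CPM and for Dnajc3, an inhibitor of the translation-stopping kinase PERK and a BiP partner, at 151 CPM. Mouse 4 on 5% RPS, with the highest inducible HSP70, had Hspa5 at 540 and Hsp90b1 at 639 CPM, inside the range of the other mice on its diet. Hspa5 and the plasma cell gene Jchain, taken because antibody-secreting cells are rich in ER chaperones, gave r = 0.322 and rho = 0.204 over 20 mice after removal of diet means (permutation tests, adjusted p = 0.265 and 0.601).

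The ER stress element, spelled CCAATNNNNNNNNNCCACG and searched on both strands, marked a different set of members. It occurred in 3 of the 55 member genes with a promoter window (Hspa5, Hsp90b1 and Dnajc3), or 5.46%, against 0.137% of all genes with a window, and in 3 of 72 member windows (4.17%) against 0.119% of all windows. No member held both elements. These 3 were among the 9 tested members that were highest of 20 in mouse 1 on 0% RPS, the others being Dnaja2, Dnajc1, Dnajc21, Hsp90aa1, Hspa4l and Hspbap1. The 3 stretches are shown because they carry the element, with the matches in capitals, 5′ to 3′ on the strand of the gene. They are chr2:34772005-34772063 (plus strand), chr10:86705513-86705676 (minus strand) and chr14:118937807-118937865 (plus strand) in GRCm38.p6, and Hsp90b1 has a match on either strand.
Hspa5: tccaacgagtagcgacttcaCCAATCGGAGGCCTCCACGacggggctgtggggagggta
Hsp90b1: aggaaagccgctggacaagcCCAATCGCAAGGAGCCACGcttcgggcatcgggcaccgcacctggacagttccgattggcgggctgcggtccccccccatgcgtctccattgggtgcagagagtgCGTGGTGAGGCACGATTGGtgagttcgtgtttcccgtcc
Dnajc3: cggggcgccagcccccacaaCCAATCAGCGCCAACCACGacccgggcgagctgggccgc

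With 10% RPS the log2 fold changes of these 3 were -0.35 ± 0.22 for Hspa5, -0.13 ± 0.14 for Hsp90b1 and -0.18 ± 0.096 for Dnajc3, with adjusted p of 0.385, 0.666 and 0.301 in edgeR. Without mouse 1 on 0% RPS they were -0.11, -0.022 and -0.095.

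The small heat shock proteins had fold changes of the opposite sign to most of the family. All 5 that were tested had a log2 fold change above 0 with 10% RPS (median 0.50), with 5% RPS (median 0.68) and with 2% RPS (median 0.18). Of all tested genes, 50.9, 49.5 and 51% were above 0. The 3 comparisons share the 0% RPS mice. None of the 5 passed the threshold, where 1.04, 0.195 and 0% of all tested genes did. Hspb7, a small heat shock protein of heart and smooth muscle that binds filamin, was 5.31, 5.65, 6.60, 3.29 and 14.3 CPM with 0% RPS and 13.9, 19.6, 14.1, 10.3 and 9.45 CPM with 10% RPS. Mouse 5 on 0% RPS lay among the 10% RPS mice, so the groups overlap. The log2 fold change was 0.94 ± 0.40 with 10% RPS (adjusted p = 0.207 in edgeR) and 1.25 ± 0.40 with 5% RPS (adjusted p = 0.151), where mouse 4 had 35.9 CPM against 7.34 to 17.0 CPM in the others. Without that mouse the value for 5% RPS was 0.75 ± 0.35 (adjusted p = 0.322).

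Hspb1 (HSP27 in humans), the most widely expressed small heat shock protein, was 24.7, 14.1, 18.1, 17.9 and 14.9 CPM with 0% RPS and 27.1, 43.9, 28.5, 20.2 and 23.2 CPM with 10% RPS. The groups overlap through mouse 1 on 0% RPS, and the log2 fold change was 0.68 ± 0.31 (adjusted p = 0.240). Hspb2, which is on the low side at 0.358 to 1.51 CPM, had log2 fold changes of 0.50 ± 0.33 with 10% and 0.73 ± 0.33 with 5% RPS (adjusted p = 0.408 and 0.329). Hspb6, a relaxant small heat shock protein of smooth muscle, and Hspb8, a partner of the co-chaperone Bag3, had 0.11 ± 0.32 and 0.0043 ± 0.17 with 10% RPS (adjusted p = 0.880 and 0.994). Dnajb5, a J protein related to Dnajb1, which was chosen for mention after its values were seen, as were Hspb2, Hspb6 and Hspb8, had log2 fold changes of 0.90 ± 0.27 with 5% RPS (adjusted p = 0.123; 0.51 ± 0.20 without mouse 4, adjusted p = 0.248) and 0.50 ± 0.27 with 10% RPS (adjusted p = 0.309).

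Markers of smooth muscle were examined beside these members. With 10% RPS, 8 of the 11 had an unadjusted p under 0.05 and a value above 0 (background 9.74%), and 3 passed the threshold (Actg2, Synm and Synpo2) where 0.547% of all tested genes did. Their summed level was 3124 to 7074 CPM with 0%, 4218 to 7264 with 2%, 5258 to 11620 with 5% and 5083 to 8420 CPM with 10% RPS, and none of the 11 was at 0. Myh11, the myosin heavy chain of smooth muscle, was highest of 20 at 2905 CPM in mouse 4 on 5% RPS and at 2342 CPM in mouse 5 on 0% RPS, the mice with the highest Hspb6 (40.3 and 31.8 CPM). Over 20 mice, after removal of diet means, Hspb6 and Myh11 gave r = 0.908 and rho = 0.850 (permutation tests, adjusted p = 2.67e-05 and 8e-05), and r = 0.843 without the 2 mice farthest from the median. Hspb7 and Myh11 gave r = 0.844 and rho = 0.792 (permutation tests, adjusted p = 2.67e-05 and 0.000133), and r = 0.737 without those mice. Hspb1 and Myh11 gave r = 0.147 and rho = 0.179 (permutation tests, adjusted p = 0.621 and 0.601), and r = 0.374 without its own 2 farthest mice. The difference between these correlations was not tested. The part of muscle content in the values of Hspb7 was not tested.

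**Figure D5:**
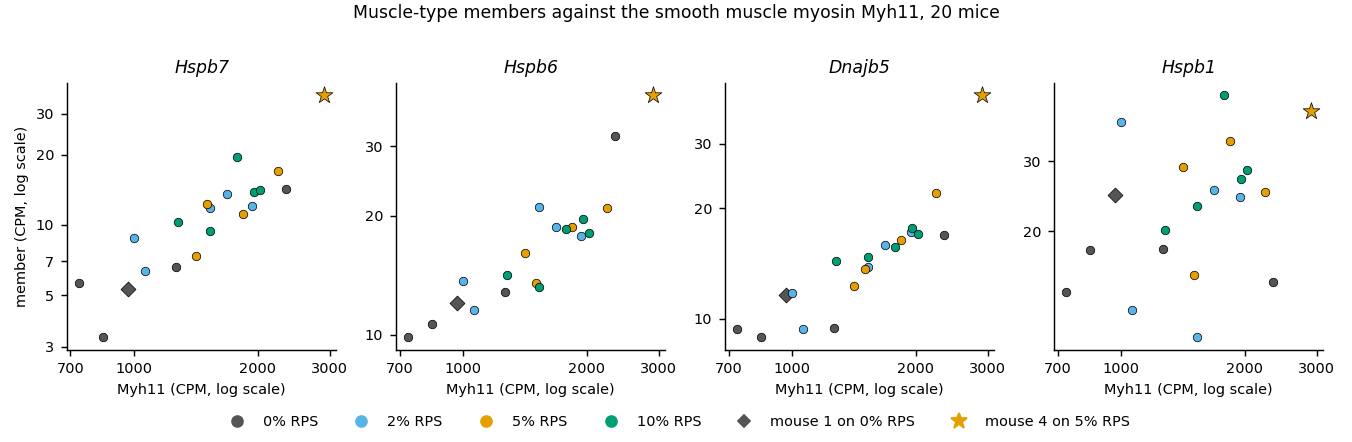
Level of Hspb7, Hspb6, Dnajb5 and Hspb1 against Myh11 in each of 20 mice, in CPM on log axes, coloured by diet, with mouse 4 on 5% RPS as a star and mouse 1 on 0% RPS as a diamond. Points of Hspb7 and Hspb6 run upward along Myh11, with r = 0.844 for Hspb7 and r = 0.908 for Hspb6 after removal of diet means, while those of Hspb1 scatter.

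Mouse 4 on 5% RPS was high both in heat-inducible genes and in Hspb6 and Hspb7. Of 66 tested members, 16 were above all of the 18 mice other than itself and mouse 1 on 0% RPS, or 24.2% against 9.93% of all tested genes. The mouse was singled out for its chaperone levels, so this share is a description. They took in the inducible Hspa1a, Hspa1b, Hsph1 and Dnajb1, the constitutive Hspa8, and also Hspb6, Hspb7 and Dnajb5. Bag3, the co-chaperone that links HSP70 to small heat shock proteins, was 170 CPM there against 40.9 to 95.4 CPM in the other 19 mice, and the muscle filament gene Des was 1598 CPM against 213 to 798 CPM. In mouse 1 on 0% RPS, 17 members were above the other 18 mice, or 25.8% against 6.91% of all tested genes, with inducible and ER chaperones among them. There Hspb7 (5.31 CPM) and Des (328 CPM) lay within the range of the other mice on 0% RPS. The part of the muscle markers and of the mitochondrial share of counts in the values of mouse 4 on 5% RPS was not tested.

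Genes that work with the family were examined beside it. Of 44 co-chaperones, regulators and clients of the HSP system that are not members, 0 passed the threshold with 10% RPS. At an unadjusted p under 0.05, 7 were lower (background 9.75%), among them Cct2, a subunit of the cytosolic chaperonin (log2 fold change -0.24 ± 0.065, adjusted p = 0.0586 in edgeR), and Fkbp5, an HSP90 co-chaperone (-0.51 ± 0.19, adjusted p = 0.148), and 1 was higher (background 9.74%). The study, with DESeq2, lists Fkbp5 as lower in the cecum with 10% RPS. The median of the 44 genes was -0.14, with 37 of 44 below 0 (background 49.1%). Of 20 genes of the unfolded protein response, 0 passed, 16 were below 0 (median -0.15), and 4 had an unadjusted p under 0.05, all lower (Atf4, Ddit3, Herpud1 and Hyou1), against the same backgrounds of 49.1% and 9.75%. Of 15 immediate early genes, 13 were below 0 and 2 passed the threshold, both lower, where 0.495% of all tested genes passed as lower. They were Btg2 (-0.82 ± 0.16, adjusted p = 0.0251) and Ier3 (-0.87 ± 0.14, adjusted p = 0.00818).

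Members that are typical of other tissues were present only at low levels. Hspa1l and Dnajb13, which are known from testis, had 2.02 to 3.93 and 4.16 to 8.75 CPM and log2 fold changes of -0.13 and -0.23 with 10% RPS (adjusted p = 0.686 and 0.515 in edgeR). Hspa12b, an endothelial member of the HSP70 family, had -0.14 ± 0.17 (adjusted p = 0.707), -0.073 without mouse 1 on 0% RPS, and its correlation with the endothelial marker Pecam1 across mice was weak (r = 0.144 and rho = 0.003, permutation tests, adjusted p = 0.621 and 0.993).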

How the data were processed

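The authors isolated cecum RNA, sequenced poly(A)-selected single-end libraries and counted reads per gene in CLC Genomics Workbench against mouse genome GRCm39, and deposited the table as raw read counts, whole numbers without normalization. The annotation release and the handling of reads that fit several genes are not given in the sources used here. All 20 libraries entered the analysis, with totals of 14967798 to 42687283 counts. Counting error is part of the spread between mice, and more so for members of low counts. Gene identifiers were matched to GENCODE M39 on GRCm39 (19827 of 19887), which gave the member symbols. Of the 3 members that were not tested, 1 is not reported here.

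From the deposited counts, genes were filtered with filterByExpr (minimum count 10, minimum total 15), which kept 15348, and scaled by TMM. CPM are counts scaled to a TMM-adjusted library of 1000000. The quasi-likelihood test of edgeR 4.0.16 (R 4.3.3, robust) was fitted over the 4 diets, and p-values were adjusted by the method of Benjamini and Hochberg over all tested genes. Contrasts were 10, 5 and 2% against 0% RPS, a linear trend and any difference. As in the study, the threshold was an adjusted p at most 0.05 with at least 1.5-fold, without the fold for trend and any difference. Log2 fold changes are given ± SE. Correlations used 100000 permutations (Python 3.11.15), and the test code was tested on simulated data.

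Named members were those past the threshold, those with an unadjusted p under 0.05 with 10% RPS, the 5 with the smallest p for the trend and for any difference, the 10 most abundant per kb, and the heat shock core and ER lists. Alternatives were DESeq2 1.42.0, its size factors, other filters, no robust option, 1 surrogate variable from sva 3.50.0, 2-diet fits, dose ranks and leaving out each mouse. Members and lists were chosen with earlier results of these data known. The mice are numbered in the order of their sample records.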

Additional observations from a re-analysis of the deposited data

Results flagged for a closer look

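In 9 cases a named member had 1 mouse far from the other 4 on its diet, by a gap to the nearest mouse that was more than 0.71 of the whole range of the 5. Chance alone flags about 1 in 20 such groups. In 5 of the 9 it was mouse 4 on 5% RPS, as the highest for Hspa1a (gap 0.861 of the range, 101.1 CPM), Hspa1b (0.834, 324 CPM), Hspa8 (0.780, 2155 CPM) and Dnajc30 (0.800, 13.2 CPM) and as the lowest for Dnajc10, an ER reductase with a J domain (0.805, 39.8 CPM). The lowest mouse stood apart for Dnajc10 in mouse 3 on 10% RPS (0.789, 59.1 CPM), for Dnajc11 in mouse 3 on 5% RPS (0.718, 68.3 CPM), for Hspa13, an ER member of the HSP70 family, in mouse 5 on 0% RPS (0.798, 28.1 CPM) and for Hspa1a in mouse 3 on 2% RPS (0.735, 1.83 CPM). Mouse 3 on 5% RPS had the smallest library, 14967798 counts.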

How the results depend on the processing

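No paired analysis was possible because the mice are different animals on each diet and their numbers only name them. With 10% RPS, 0 members passed in the reported fit, 1 with 1 surrogate variable (Hspb7, where 2.59% of all genes passed) and 0 to 1 with each mouse left out (Hspa1a, without mouse 4 on 5% RPS, where 1.22% did). By adjusted p alone, 7 members were past 0.05 with 1 surrogate variable, where 10.8% of all tested genes were. With 5% RPS the DESeq2 Wald test called 1 (Dnajb5, 1.3% of all genes). For the trend, DESeq2 called 3 (Dnaja2, Dnajc11 and Dnajc21, with 3.83% of all genes), 1 surrogate variable 4 (the same 3 and Dnajb6, with 6.79%) and dose ranks 1 (Dnajc11, with 3.51%), and leaving out each mouse gave 0 to 4, with 4 when mouse 3 on 2% RPS (4.37% of all genes), 2 when mouse 4 on 10% RPS (3.64%) and 1 when mouse 3 on 5% RPS (0.725%) was absent. With 2% RPS and for any diet, 0 members passed in every fit run. Members higher at an unadjusted p under 0.05 with 10% RPS numbered 3, then 5 with 1 surrogate variable (14.5% of all genes) and 0 to 7 with each mouse left out (0 without mouse 4 and 7 without mouse 5 on 0% RPS, against 7.86 and 9.62% of all genes). Members lower numbered 12, and 8 to 17 with each mouse left out (8 when mouse 3 on 10% RPS and 17 when mouse 4 on 5% RPS was absent, against 6.99 and 10% of all genes).

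Among the refits of the 35 named members with 10% RPS, 933 kept the sign and side of the threshold, 2 passed it (Hspb7 and Hspa1a, above) and 10 changed sign. With each mouse left out, the ranges that cross 0 were -0.12 to 0.015 for Dnajb12, -0.070 to 0.10 for Dnajc10, -0.34 to 0.24 for Hsp90aa1, -0.39 to 0.12 for Hspa4l, -0.25 to 0.018 for Hspe1 and -0.58 to 0.050 for Hsph1. Hspe1 also reversed with 1 surrogate variable (0.059). With 5% RPS, Hspa1a and Hspa1b reversed without mouse 4 (-0.62 and -0.58), an alternative added after seeing the data. The correlation of Hspa1b with Fos was 0.069 when diet means were kept. The causes of these changes were not tested. The precision was set by the spread between 5 mice per diet, and SE of the heat-inducible Hspa1a and Hspa1b reached 0.79.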

Other observations

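The highest shares of mitochondrial counts were found in mouse 4 on 5% RPS, mouse 3 on 2% RPS and mouse 5 on 0% RPS, 13.0 to 15.4% against 9.0 to 11.5% in the other 17 mice. In those 3 mice, 6 members were below every other mouse (Dnajc10, Dnajc22, Dnajc24, Dnajc28, Hspa13 and Hspe1), or 9.09% of the tested members against 10.7% of all tested genes. Hspe1 was 23.1, 14.9 and 23.0 CPM there and 32.8 to 72.8 CPM in the other 17. Another 4 members were above every other mouse (Dnajb12, Dnajc4, Dnajc7 and Hspb6), or 6.06% against 7.79% of all tested genes. Dnajc7, a J protein that also binds HSP90, was 114, 116 and 97.9 CPM there and 80.9 to 94.8 CPM in the rest. These shares were close to the background, so the split describes those libraries and is no property of the chaperones. The 3 mice were on different diets, and the split was noticed in the data and not tested.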
